A study of Mus musculus with 8 samples.

Results

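The genes followed here are the 10 genes of MHC class I antigen presentation H2-K1, H2-D1, B2m, Tap1, Tap2, Tapbp, Psmb8, Psmb9, Psmb10 and Nlrc5. They were chosen by name, with earlier results of these data known, from the 54146 genes of the deposited tables. They were measured by RNA-seq in 4 lines of EL4, a T lymphoma cell line of C57BL/6 mice that expresses its own Gata3, with 2 libraries per line. The GFP + Plum line expressed GFP and Plum, fluorescent proteins that serve as controls, the T-bet + Plum line FLAG-tagged T-bet with Plum, the GFP + GATA3 line HA-tagged GATA3 with GFP, and the T-bet + GATA3 line both tagged factors. T-bet and GATA3 are the transcription factors that direct T helper cells to the TH1 and TH2 fates, and the design asks how each factor, alone or with the other, changes gene expression. All cells were stimulated with PMA at 50 ng/ml and ionomycin at 1 µM for 4 hours. Each condition was 1 retrovirally transduced line, so a difference between lines cannot be told apart from a difference between the conditions they carry. The study defines its replicates as harvests of 1 line on different days, and the p-values therefore measure the spread between harvests only.

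Class I molecules display peptides from proteins made inside the cell to CD8+ T cells and inhibit natural killer cells. Peptides are cut by the proteasome, whose constitutive catalytic subunits are replaced by the immunosubunits Psmb8, Psmb9 and Psmb10 under interferon, carried into the endoplasmic reticulum by the Tap1-Tap2 transporter, and loaded with the help of tapasin, the product of Tapbp, onto a heavy chain paired with B2m. H2-K1 and H2-D1 encode the classical heavy chains, and Nlrc5 encodes a transactivator that acts at class I promoters. Interferon gamma, a product of TH1 cells and a known target of T-bet, is a classical inducer of this pathway.

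Of the 10 genes, 7 lie on chromosome 17 of GRCm38 (Gencode M21 positions), 2 on chromosome 8 and 1 on chromosome 2. Psmb9, Tap1, Psmb8 and Tap2 neighbour each other within 34335 bases. Psmb9 (chr17:34181987-34187764, minus strand) and Tap1 (chr17:34187553-34197225, plus strand) run in opposite directions and overlap by 212 bases. Psmb8 is at chr17:34197721-34201454 and Tap2 at chr17:34203527-34216321, both on the plus strand. H2-K1 (chr17:33996017-34000347, minus strand), Tapbp (chr17:33915899-33929292, plus strand) and H2-D1 (chr17:35262730-35267499, plus strand) lie outside this cluster. B2m is at chr2:122147686-122153083, Psmb10 at chr8:105935735-105938444 on the minus strand and Nlrc5 at chr8:94434356-94527272.

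RefSeq promoters on GRCm38.p6, running from 250 bases before to 50 bases after the start, were given for 8 of the 10 genes, all but Tap2 and Nlrc5. They are shown because letters known from interferon-responsive and class I promoters can be read in them. The stretches before the starts of H2-K1 (chr17:34000348-34000597, minus strand) and B2m (chr2:122147437-122147685, plus strand) read, 5′ to 3′, with the matches described below in capitals:
H2-K1: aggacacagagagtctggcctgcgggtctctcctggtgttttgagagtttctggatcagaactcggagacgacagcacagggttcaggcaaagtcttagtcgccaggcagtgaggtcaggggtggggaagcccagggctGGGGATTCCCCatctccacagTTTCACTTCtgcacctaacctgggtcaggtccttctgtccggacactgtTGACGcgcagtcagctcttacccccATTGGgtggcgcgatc
B2m: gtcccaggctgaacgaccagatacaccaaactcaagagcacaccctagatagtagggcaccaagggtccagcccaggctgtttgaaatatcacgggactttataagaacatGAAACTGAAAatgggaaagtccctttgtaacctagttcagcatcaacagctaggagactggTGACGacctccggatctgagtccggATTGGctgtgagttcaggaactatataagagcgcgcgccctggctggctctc

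The core of the interferon-stimulated response element, searched on both strands as GAAA, any 2 bases and GAAA, was present in 1 of the 8 promoters, that of B2m, and in 3.44% of the 32851 promoters of the table. A further pair of motifs was chosen after the promoters had been seen. The letters GAANTGAAA, a variant interferon response motif, were found in H2-K1 and H2-D1 and in 1.83% of all promoters. The kappa B letters GGGA, any 3 bases and CCC were found in the same pair of genes and in 5.55% of all promoters. In the H2-K1 and H2-D1 promoters both matches fell in a 30-base stretch with the same spacing, where the kappa B capitals hold an overlapping match on each strand:
H2-K1 (chr17:34000429-34000458, minus strand): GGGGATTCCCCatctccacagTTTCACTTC
H2-D1 (chr17:35262923-35262952, plus strand): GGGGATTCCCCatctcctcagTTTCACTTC
The stretches differed at 1 position, A18T, counted from 1 at the 5′ end with the H2-K1 base first. Aligned on this stretch without gaps, the promoters shared 73.3% of 240 bases. The H2-D1 stretch lies inside the Gencode M21 model of H2-D1, which starts further upstream than the RefSeq start.

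A gamma-activated site, searched as TTCNNNGAA, was found in 1 of the 8 promoters, that of Psmb8, and in 8.30% of all promoters. The letters TGACG of the cyclic AMP response element, on either strand, was found in H2-K1, H2-D1, B2m, Tap1 and Psmb9, or 5 of 8, and in 20.8% of all promoters. The stretches around the Psmb8 and Tap1 matches show these letters:
Psmb8 (chr17:34198088-34198117, plus strand): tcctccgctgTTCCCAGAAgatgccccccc
Tap1 (chr17:34187458-34187487, plus strand): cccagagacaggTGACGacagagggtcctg
The Psmb8 stretch lies inside the Gencode M21 model of Psmb8, and the Tap1 stretch lies inside that of Psmb9. The letters CCAAT were found on either strand in 6 of the 8 promoters and in 37.4% of all promoters. The T-box core GGTGTGA, found in 3.98% of all promoters, and the GATA core AGATAA, found in 11.2%, were in none of the 8 windows on either strand. These matches are letters in a window and no binding was measured here.

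The libraries held between 8038565 and 16003519 estimated counts, and 14791 genes had enough counts to be tested, all 10 genes followed here among them. Levels within a gene are given as CPM, the count of a gene relative to the library total as scaled by edgeR's TMM factors. Levels between genes are given as TPM, a relative transcript abundance that also corrects for length. Tbx21, which encodes T-bet, was at 52.4 to 70.2 TPM in the 4 libraries with T-bet and at 0.755 to 1.72 TPM in the 4 without. Gata3 was at 39.8 and 53.3 CPM in GFP + Plum, 25.8 and 34.9 in T-bet + Plum, 283 and 326 in GFP + GATA3, and 204 and 165 in T-bet + GATA3. Of 9 T cell markers, 8 reached 1 TPM, among them Cd3e at 88.9 to 128 TPM, whereas Cd247 stayed at or under 0.511 TPM. None of 4 B cell, 5 myeloid and 2 natural killer cell markers reached 1 TPM, and Cd79b and Ncr1 were at 0 in every library. The summed T cell markers ran from 2290 to 3750 TPM, with Trbc2 the highest of them at 1430 to 2870 TPM and Trac next at 126 to 275 TPM. The sum averaged 3540 TPM in T-bet + Plum and 3270 TPM in T-bet + GATA3, against 2580 TPM in GFP + Plum and 2470 TPM in GFP + GATA3. The part of that difference in the results below was not tested. In bulk RNA, fewer cells of a type and less RNA per cell cannot be told apart.

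B2m, the light chain shared by all class I molecules, was the most abundant of the 10 transcripts at 1559 to 1973 TPM. H2-K1 followed at 752 to 1124 TPM, H2-D1 at 504 to 726 TPM and Psmb8 at 40.3 to 119 TPM, and these 4 kept their order in each of the 8 libraries. Below them the mean levels were 40.0 TPM for Psmb10, 32.1 TPM for Psmb9, 24.3 TPM for Tapbp, 24.2 TPM for Tap2, 17.7 TPM for Nlrc5 and 16.4 TPM for Tap1. Neighbours in this lower part of the order changed places between libraries, with the higher of each pair above the next in 4 to 6 of 8 libraries. The range across libraries was narrow for B2m, with a highest-to-lowest ratio of 1.27, and wide for Tap1 and Psmb10, with ratios of 4.18 and 4.28 in TPM.

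The genes of the peptide transporter, tapasin, Psmb9, Psmb10 and the heavy chain H2-K1 were higher with T-bet when its effect was averaged over the lines with and without introduced GATA3. Averaged over the GATA3 states, 6 of the 10 genes passed a false discovery rate (FDR) of 0.05 in edgeR's quasi-likelihood test with Benjamini-Hochberg adjustment, all of them higher, where 15.2% of all genes tested were called in either direction and 8.55% were called higher. The called genes were Psmb10, Tap1, Tap2, Tapbp, Psmb9 and H2-K1. The other 4, Psmb8, Nlrc5, H2-D1 and B2m, had log2 fold changes (FC) from 0.25 to 0.66 with FDR from 0.0634 to 0.111. The median log2 FC of the 10 genes was 0.74, against 0.017 over all genes tested, and all 10 had an unadjusted p under 0.05, against 29.2% of all genes. All 10 were above 0, as were 52.0% of all genes. In CPM, 8 of the 10 genes had all 4 libraries with T-bet above all 4 without it, which held for 12.6% of all genes tested. In TPM the same held for 6 of the 10 and for 7.15% of all genes tested.

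**Figure D1:**
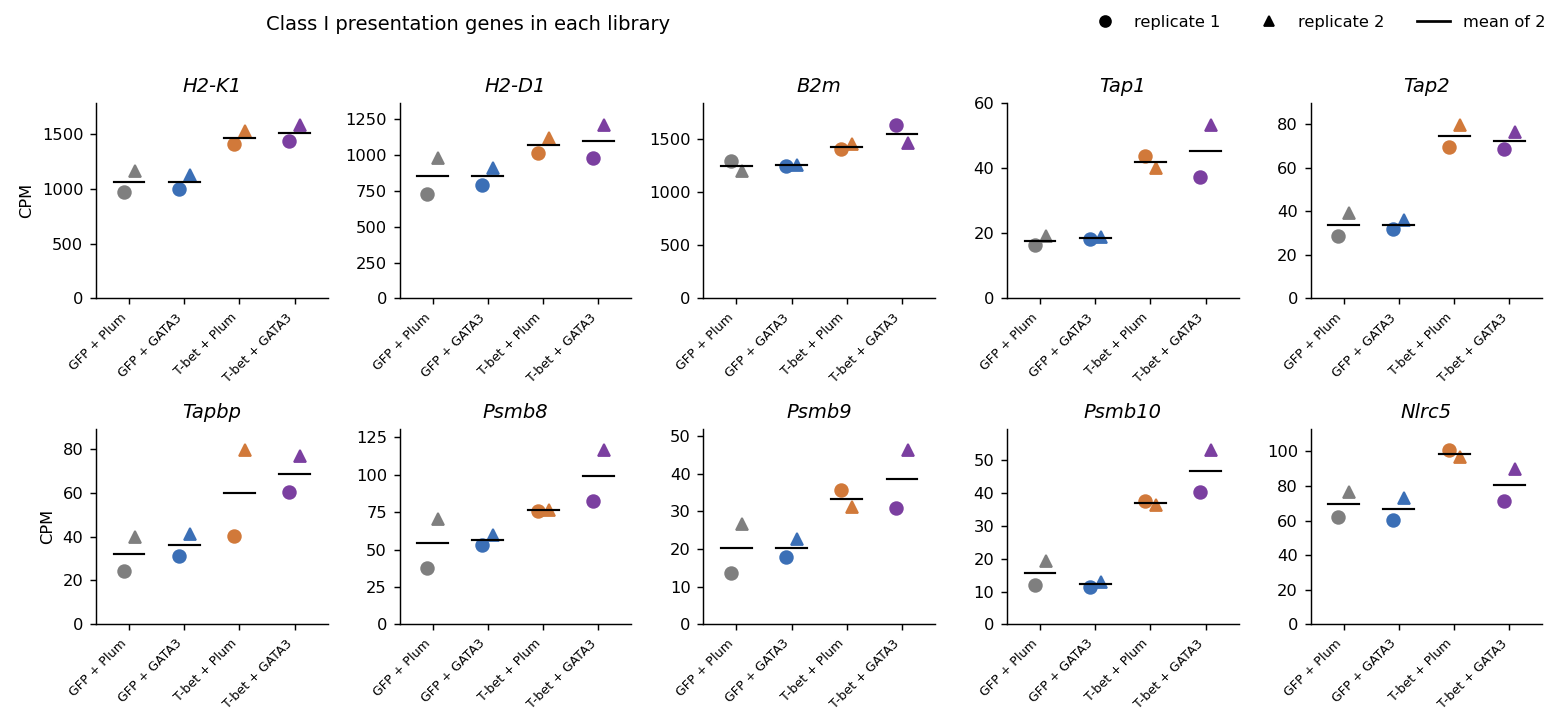
CPM of each of the 10 genes (y axis, from 0, a scale of its own per gene) in the 8 libraries, grouped by line on the x axis. Circles are replicate 1, triangles replicate 2 and bars the mean of 2. For Tap1 and Tap2 the T-bet libraries lie at 37.2 CPM or more and 68.3 CPM or more, above every library without T-bet, whereas for Tapbp and Nlrc5 the libraries with and without T-bet overlap.

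Tap1 and Tap2, the subunits of the peptide transporter, both rose with T-bet. Tap1 was at 16.3 and 19.2 CPM in GFP + Plum, 18.3 and 18.8 in GFP + GATA3, 44.0 and 40.0 in T-bet + Plum, and 37.2 and 53.5 in T-bet + GATA3. Its lowest library with T-bet was thus well above its highest without. The T-bet effect averaged over GATA3 states was a log2 FC of 1.27 ± 0.14 (SE), or 2.40-fold, with an edgeR FDR of 0.000706. Tap2 was at 28.7 and 39.1 CPM in GFP + Plum, 31.8 and 36.0 in GFP + GATA3, 69.4 and 79.7 in T-bet + Plum, and 68.3 and 76.5 in T-bet + GATA3. Its log2 FC was 1.12 ± 0.12, or 2.17-fold, with an FDR of 0.000842. The ratio of Tap1 to Tap2 in TPM ran from 0.481 to 0.785 without T-bet and from 0.574 to 0.922 with it, and these ranges overlap.

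Most of the Tap2 signal lay on a transcript that is annotated as a retained intron and not as protein-coding. Transcripts of that kind took 67.3% to 85.5% of the TPM of Tap2 in each library. The protein-coding transcripts of Tap2 summed to 1.96 and 2.35 TPM in GFP + Plum, 2.86 and 2.04 TPM in GFP + GATA3, 5.16 and 6.10 TPM in T-bet + Plum, and 3.39 and 5.47 TPM in T-bet + GATA3. All 4 libraries with T-bet were thus above the 4 without it in the protein-coding transcripts as well, at a lower level. For Tap1, protein-coding transcripts took on average 80.7% of TPM. Of 31-base words in the Gencode M21 transcripts of Tap2, 14.3% also occur in other genes, mostly in Gm15821, and for Tap1 the share was 4.09%, mostly with Psmb9.

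Tapbp encodes tapasin, which bridges the transporter and the heavy chain. It was at 24.3 and 39.6 CPM in GFP + Plum, 31.0 and 41.0 in GFP + GATA3, 40.4 and 79.3 in T-bet + Plum, and 60.1 and 76.7 in T-bet + GATA3. The T-bet + Plum libraries lay far apart, and replicate 1 fell within the range of the lines without T-bet. The averaged log2 FC of 0.92 ± 0.24 passed with an FDR of 0.0391, and the call was lost when any of 6 libraries was left out, all but replicate 2 of GFP + Plum and replicate 1 of T-bet + Plum, and with offsets for transcript length (FDR up to 0.133). Of the 31-base words of Tapbp, 26.9% occur in other genes, mostly in Gm19412.

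**Figure D2:**
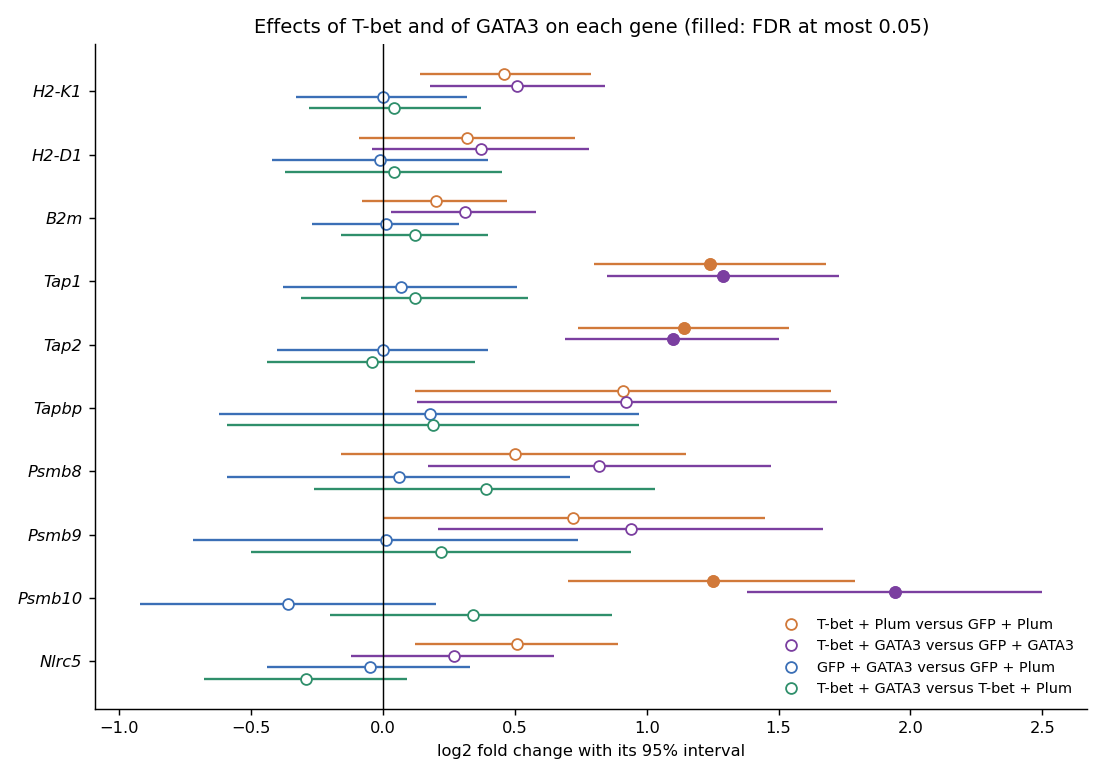
Log2 fold change (x axis) with its 95% interval for each gene (y axis) in 4 pairwise comparisons, from edgeR, with filled points for FDR at most 0.05. The points for T-bet, in orange and purple, lie above 0 for every gene, but some of their intervals include 0, among them both of H2-D1. Every interval for the effect of GATA3, in blue and green, includes 0.

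Of the immunosubunits, Psmb10 and Psmb9 were called higher and Psmb8 was not, and differences between these genes were not tested. Psmb10 was at 12.0 and 19.3 CPM in GFP + Plum, 11.3 and 13.0 in GFP + GATA3, 37.7 and 36.5 in T-bet + Plum, and 40.3 and 53.1 in T-bet + GATA3. The groups with and without T-bet were widely separated, and the averaged log2 FC of 1.59 ± 0.17, or 3.02-fold, was the largest among the 10 genes (edgeR FDR 0.000688). Psmb10 was also the only one of them past the study's fold threshold, a log2 FC above 1.5 in size beside the FDR, which 4.50% of all genes tested passed. Protein-coding transcripts took 33.6% of the TPM of Psmb10 on average, and they were at 5.02 to 10.1 TPM in the libraries without T-bet and 17.8 to 28.5 TPM in those with it.

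Psmb9 was at 13.7 and 26.6 CPM in GFP + Plum, 17.8 and 22.6 in GFP + GATA3, 35.6 and 31.1 in T-bet + Plum, and 31.0 and 46.2 in T-bet + GATA3. The groups did not overlap, although replicate 2 of GFP + Plum came close to the lower T-bet libraries. The averaged log2 FC was 0.83 ± 0.22 with an FDR of 0.0417, and the call was lost without either T-bet + Plum library, either GFP + GATA3 library or replicate 2 of T-bet + GATA3, and with offsets for transcript length (FDR up to 0.130). Psmb8 was at 37.4 and 70.7 CPM in GFP + Plum, 52.9 and 59.7 in GFP + GATA3, 75.7 and 76.7 in T-bet + Plum, and 82.4 and 116 in T-bet + GATA3. The groups did not overlap here either, but with a log2 FC of 0.66 ± 0.20 and an FDR of 0.0634 Psmb8 was not called. It was called with DESeq2, with no filter on low counts, among protein-coding genes alone, with a replicate block and without replicate 2 of GFP + Plum. For both genes replicate 1 of GFP + Plum was the lowest of the 8 libraries.

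Each immunosubunit takes the place of a constitutive subunit, Psmb8 that of Psmb5, Psmb9 that of Psmb6 and Psmb10 that of Psmb7. None of these 3 constitutive subunits was called, with averaged log2 FC from -0.11 to 0.09. The ratio of Psmb10 to Psmb7 in TPM was 0.117 to 0.176 without T-bet and 0.381 to 0.542 with it. The ratio of Psmb8 to Psmb5 was 0.309 to 0.509 without T-bet and 0.544 to 0.798 with it, and that of Psmb9 to Psmb6 was 0.0566 to 0.136 against 0.152 to 0.179. The libraries with and without T-bet thus did not overlap in any of the 3 ratios, with a narrow gap for the last 2. Summed over the 3 pairs, immunosubunit TPM was 0.146 to 0.246 of constitutive TPM without T-bet and 0.315 to 0.438 with it, so that constitutive subunit transcripts remained the more abundant kind in every library.

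**Figure D3:**
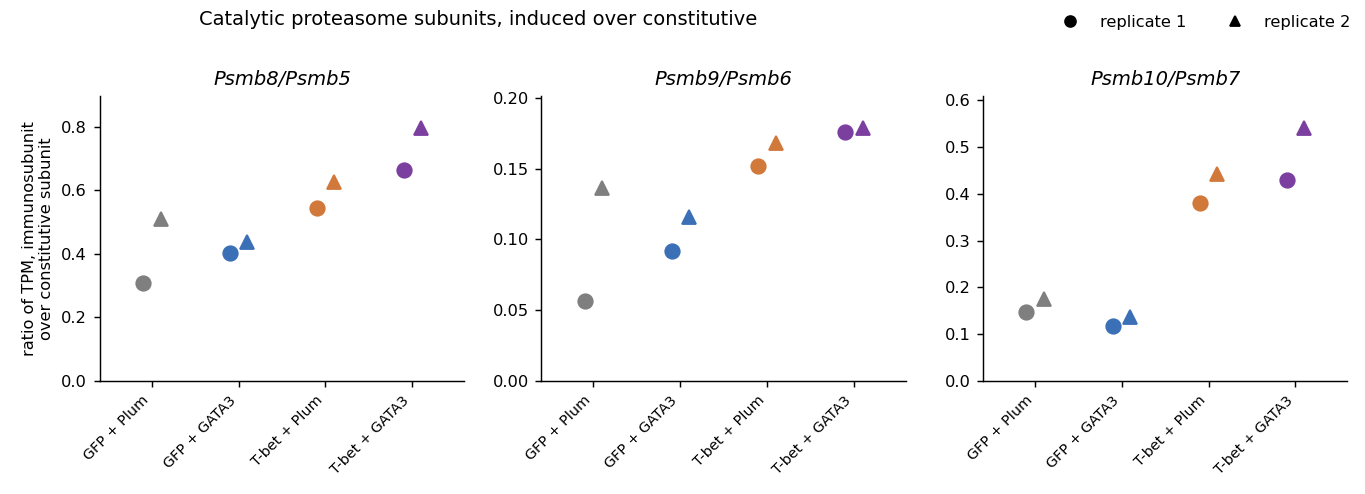
Ratio of immunosubunit to constitutive subunit TPM (y axis, from 0) in each of the 8 libraries by line (x axis), with circles for replicate 1 and triangles for replicate 2. In each panel the 4 libraries with T-bet lie above the 4 without, with the widest gap for Psmb10 over Psmb7 (0.176 to 0.381).

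Of the classical heavy chains and the light chain, H2-K1 alone was called. H2-K1 was at 968 and 1161 CPM in GFP + Plum, 1000 and 1126 in GFP + GATA3, 1407 and 1530 in T-bet + Plum, and 1440 and 1587 in T-bet + GATA3. The groups did not overlap and the averaged log2 FC of 0.49 ± 0.10, or 1.40-fold, passed with an edgeR FDR of 0.0145, a call lost without replicate 1 of GFP + GATA3, replicate 2 of T-bet + Plum or replicate 2 of T-bet + GATA3 (FDR up to 0.0701). H2-D1 was at 730 and 976 CPM in GFP + Plum, 790 and 907 in GFP + GATA3, 1011 and 1118 in T-bet + Plum, and 980 and 1209 in T-bet + GATA3. Its groups were separated by a few CPM only, and a log2 FC of 0.34 ± 0.13 was not called (FDR 0.111). H2-D1 was called with length offsets, with no filter, with a replicate block and without replicate 2 of GFP + Plum. In TPM its groups overlapped, with replicate 1 of T-bet + GATA3 at 573 TPM and replicate 2 of GFP + GATA3 at 583 TPM. B2m was at 1296 and 1196 CPM in GFP + Plum, 1250 and 1259 in GFP + GATA3, 1403 and 1450 in T-bet + Plum, and 1637 and 1466 in T-bet + GATA3. In CPM all 4 libraries with T-bet lay above the others, and a log2 FC of 0.25 with a 95% interval from 0.06 to 0.45 was not called (FDR 0.0890). In TPM the groups of B2m overlapped, with replicate 1 of T-bet + Plum at 1885 TPM and replicate 1 of GFP + Plum at 1898 TPM.

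H2-K1 and H2-D1 share sequence with each other and with other heavy chains, and how kallisto split these reads was not checked. Of the 31-base words of H2-K1, 22.8% occur in other genes, and of those of H2-D1, 26.9%. With the heavy chain genes of the H2 region summed as 1 feature, the averaged log2 FC was 0.50 with an FDR of 0.0158. H2-K1 and H2-D1 made up 88.0% to 89.6% of that summed TPM without T-bet and 84.2% to 86.4% with it. The ratio of H2-K1 to H2-D1 in TPM kept to a narrow range, 1.44 to 1.49 without T-bet and 1.5 to 1.59 with it. These ranges did not overlap.

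Nlrc5 was at 62.2 and 76.8 CPM in GFP + Plum, 60.6 and 73.1 in GFP + GATA3, 101 and 96.9 in T-bet + Plum, and 71.2 and 89.8 in T-bet + GATA3. The T-bet + Plum libraries were the highest, and replicate 1 of T-bet + GATA3 lay within the range of the lines without T-bet. The averaged log2 FC of 0.39 ± 0.12 was not called (FDR 0.0643). It was called with no filter on low counts, among protein-coding genes alone and with a replicate block. In TPM, T-bet + GATA3 (14.3 and 18.9) and GFP + GATA3 (17.0 and 18.1) overlapped, and the mean was lower with T-bet, 16.6 against 17.5 TPM, whereas the log2 FC of this pair from counts was 0.27 and was not called.

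Taken by line, T-bet + Plum against GFP + Plum called 3 of the 10 genes in edgeR, where 6.20% of all genes tested were called. These were Tap1 with a log2 FC of 1.24 ± 0.19 (FDR 0.00907), Tap2 with 1.14 ± 0.17 (FDR 0.00888) and Psmb10 with 1.25 ± 0.24 (FDR 0.0211). All 10 log2 FC were above 0, with a median of 0.62, and 6 of the 10 had an unadjusted p under 0.05, against 19.4% of all genes. None of the 3 calls was left without replicate 2 of T-bet + Plum, and 1 was left without replicate 1, where 268 and 390 of all genes were called, against 917 with all libraries. None passed the fold threshold as well, against 3.02% of all genes. T-bet + GATA3 against GFP + GATA3 called the same genes, where 5.77% of all genes were called, with log2 FC of 1.29 ± 0.19 for Tap1 (FDR 0.00776), 1.10 ± 0.18 for Tap2 (FDR 0.0105) and 1.94 ± 0.24 for Psmb10 (FDR 0.00372). The median there was 0.87, and 8 of the 10 had an unadjusted p under 0.05, against 19.6% of all genes. Psmb10 alone passed the fold threshold, against 2.85% of all genes, and 1 call was left without either GFP + GATA3 library, while 5 were made without either GFP + Plum library. Over all genes tested, 308 and 250 were called without replicates 1 and 2 of GFP + GATA3, and 1021 and 1019 without those of GFP + Plum, against 854 with all libraries. T-bet + GATA3 against GFP + Plum, which shares libraries with both, called 3 genes, with 4.87% of all genes called, and had a median of 0.91. Psmb10 passed the fold threshold there, against 2.61% of all genes. In that comparison none of the genes was called when the 4 libraries were fitted alone, and 5 were called without replicate 2 of GFP + Plum, with 294 and 504 of all genes called against 721 in the fit of all libraries.

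GATA3 called none of the 10 genes. GFP + GATA3 against GFP + Plum gave log2 FC from -0.36 for Psmb10 to 0.18 for Tapbp, with a median of 0.00. In edgeR 0.0203% of all genes were called in that comparison. None of the 10 genes had an unadjusted p under 0.05, against 3.70% of all genes. DESeq2 also called 0 of the 10, and 52 of 30930 genes in all. The intervals bound the effect most closely for B2m, from -0.27 to 0.29, and H2-K1, from -0.33 to 0.32, and least for Tapbp, from -0.62 to 0.97. Adding GATA3 to T-bet (T-bet + GATA3 against T-bet + Plum) gave log2 FC from -0.29 for Nlrc5 to 0.39 for Psmb8, with 0 called and 0.0338% of all genes called. No unadjusted p was under 0.05 among the 10, against 3.78% of all genes. Averaged over the T-bet states, GATA3 gave a median log2 FC of 0.04, with 0 of the 10 and 0.0608% of all genes called, and no unadjusted p under 0.05 among the 10, against 4.96% of all genes.

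Whether the effect of T-bet differed with GATA3 present was tested as an interaction. In edgeR it called 0 of the 10 genes and 0.00% of all genes, and 0 of the 10 had an unadjusted p under 0.05, against 2.58% of all genes. Psmb10 came nearest, with a log2 difference of 0.70 ± 0.33, a 95% interval from -0.07 to 1.46 and an unadjusted p of 0.0706. For Tap1 the difference was 0.05 with an interval from -0.57 to 0.67, and for H2-K1 0.05 with an interval from -0.41 to 0.51.

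The neighbouring parts of the pathway were followed with gene lists drawn up with earlier results of these data known, and their counts stand beside the 8.55% of all genes tested that were called higher with T-bet averaged over GATA3 states and the 15.2% called in either direction. Of 12 tested class I and class I-like heavy chains other than H2-K1 and H2-D1, 6 were called higher in this average and none lower. The heavy chain H2-T22 was at 23.5 to 26.9 CPM in the libraries without T-bet and 70.1 to 75.0 CPM in those with it, a log2 FC of 1.51 ± 0.086 (edgeR FDR 3.28e-05). H2-Q4, a Qa-region heavy chain, had a log2 FC of 1.09, and H2-T23, which encodes the Qa-1 molecule that presents leader peptides to natural killer cell receptors, one of 1.05. H2-Q7, the highest of this list in mean TPM over the 8 libraries, had one of 0.76. The folds of H2-T22, H2-Q4 and H2-T23 were thus more than that of H2-K1, at lower levels, and this difference between genes was not tested.

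Of 9 genes of peptide trimming and loading in the endoplasmic reticulum, 2 were called, both higher, a share near the 15.2% of all genes called in either direction. Erap1, the aminopeptidase that trims peptides to the length class I molecules bind, had a log2 FC of 1.18 ± 0.17 (FDR 0.00259), and Tapbpl, a tapasin-related peptide editor, had one of 0.81 ± 0.23 (FDR 0.0484). The chaperones Calr, Canx and Pdia3 were not called, and Hspa5, the most abundant of the list, had 0.46 with an FDR of 0.0517. Among 10 proteasome activators and assembly factors, 3 were called higher and 1 lower, beside 8.55% of all genes called higher. Psme2 and Psme1, the subunits of the interferon-inducible PA28 activator, had log2 FC of 1.23 and 0.85, and Psme4, which encodes the activator PA200, had -0.38. None of the 11 other subunits of the proteasome core was called, with log2 FC from -0.06 to 0.09.

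**Figure D4:**
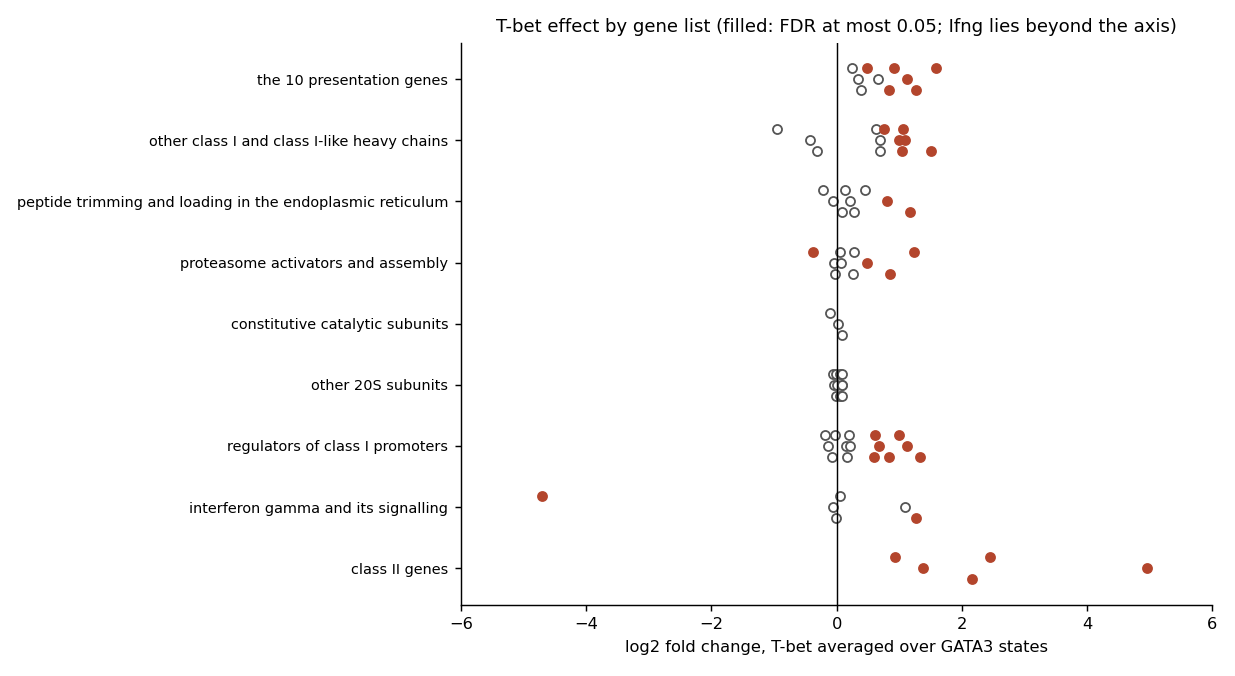
Log2 fold change with T-bet averaged over GATA3 states (x axis) for the 10 genes and the other lists (y axis). Each tested gene is 1 point, filled at FDR at most 0.05, except Ifng, which lies beyond the axis and is not drawn. The 10 presentation genes lie between 0.25 and 1.59, and the constitutive and other core subunits of the proteasome lie between -0.11 and 0.09 with none filled.

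Of 15 tested regulators of class I promoters, 7 were called higher and none lower, beside 8.55% of all genes called higher. Irf1, an interferon-induced activator of class I and Tap1 promoters, was at 8.63 to 14.7 CPM without T-bet and 24.9 to 31.1 CPM with it (log2 FC 1.33 ± 0.11, edgeR FDR 0.000238). Nfkb1, a kappa B subunit, had a log2 FC of 0.84. The subunits of the RFX and NF-Y complexes, which bind the conserved boxes of class I promoters, were not called, with log2 FC from -0.19 for Nfyb to 0.21 for Rfxap. Creb1, on the same list, was called higher (log2 FC 0.59, edgeR FDR 0.00587), and Atf1 was not called (log2 FC -0.13). Of 7 tested genes of interferon gamma and its signalling, 2 were called higher and 1 lower, beside 15.2% of all genes called in either direction. Ifng itself was at 0.186 to 0.698 CPM without T-bet and 2788 to 3970 CPM with it. With 3 to 11 counts in the libraries without T-bet, it passed the count filter through those with T-bet. Its place among the 7 was thus not separate from its change. Jak2, a kinase of the interferon gamma receptor, had a log2 FC of 1.27. Ifngr2, a chain of that receptor, went the other way, from 4.37 to 14.0 CPM without T-bet to 0.124 to 0.976 CPM with it (edgeR FDR 0.000416). With 1 to 9 counts in the libraries with T-bet, Ifngr2 passed the filter through those without it. Ifngr1 was not called (log2 FC -0.05).

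Class II genes present peptides taken up from outside the cell and are not a feature of mouse T cells. Of 10, 5 were tested and all 5 were called higher with T-bet averaged over GATA3 states, at low levels, beside 8.55% of all genes. H2-Eb1 had 3 to 9 counts in the libraries without T-bet and 14 to 50 in those with it. It thus passed the count filter through the libraries with T-bet. For such a gene, being tested was not separate from being higher, so this count cannot be set fairly against the share of all genes. The same limit holds for the counts by line. Of the 5, 1 was called for T-bet + Plum against GFP + Plum, beside 6.20% of all genes. For T-bet + GATA3 against GFP + GATA3, 4 were called, beside 5.77% of all genes. The interaction called none of the 5. H2-Oa, a chain of the H2-O molecule that modulates class II peptide loading, had the highest mean TPM of them over the 8 libraries. It was at 2.95 to 7.68 TPM without T-bet and 10.3 to 18.5 TPM with it. Cd74 was above it in both GFP + Plum libraries and in replicate 2 of T-bet + GATA3. The log2 FC of H2-Oa was 1.84 in T-bet + Plum, which was called (edgeR FDR 0.026). In T-bet + GATA3 it was 0.92, which was not called (FDR 0.208). The class II chaperone Cd74 was at 3.16 to 9.61 TPM without T-bet and 8.85 to 11.4 TPM with it, with a log2 FC of 0.31 that was not called in T-bet + Plum (edgeR FDR 0.543) and one of 1.55 in T-bet + GATA3 (FDR 0.0117), and H2-Eb1 at 0.292 to 0.578 TPM against 1.16 to 4.55 TPM. The class II transactivator Ciita was too low to be tested.

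The likeness of other genes to the class I genes was described by the Pearson correlation of their log2 CPM with the mean of the 10 genes' centred log2 CPM over the 8 libraries. Among 8058 other protein-coding genes with a mean of at least 5 TPM, the 10 most alike were Psme1 (0.993), Eno3, Psme2, Erap1, Prex1, Mcoln2, Arsb, Sit1, Tnfsf14 and Ppm1h (0.979). All points share the same 8 libraries and 4 lines, and no test was made of these values. Within the 10 genes the correlation with the mean of the other 9 was highest for H2-K1 (0.995) and lowest for B2m (0.731) and Nlrc5 (0.807).

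**Figure D5:**
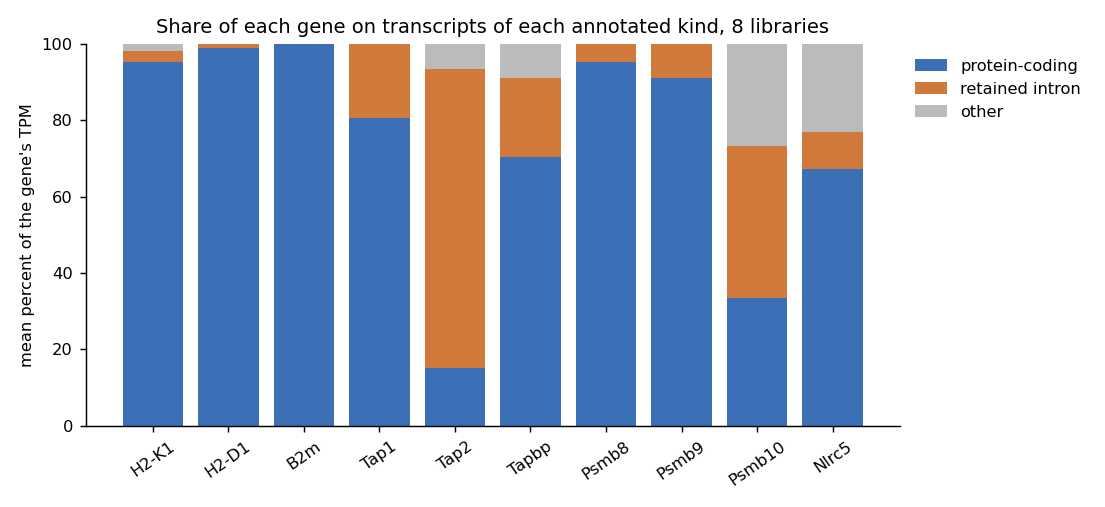
Mean percent of each gene's TPM (y axis) on transcripts annotated as protein-coding, retained intron or other, over the 8 libraries, for the 10 genes (x axis). Protein-coding transcripts take 15.1% for Tap2 and 33.6% for Psmb10, and over 67% for the other genes.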

How the data were processed

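Poly-adenylated RNA of the 8 libraries was sequenced as paired-end reads. Per the labels and the study's methods, the authors used Trim Galore, FastQC and kallisto with Gencode mouse transcripts on mm10. The deposited values are estimated counts, TPM and effective lengths per transcript, 136535 in all. Gencode M20 is named in the methods and M18 in the names of the tables. The kallisto strand setting is not given in the sources used here, so reads of the overlapping Tap1 and Psmb9 may not be told apart.

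Within each gene, estimated counts were added up and rounded and TPM were added up. Positions are those of Gencode M21. Counts were tested with edgeR 4.0.16 (filterByExpr, TMM, glmQLFit, glmQLFTest, all 8 libraries in 1 fit) in 8 comparisons, with Benjamini-Hochberg adjustment over 14791 genes and an FDR of at most 0.05 as a call. Standard errors were derived from the same fit, as the size of the log2 FC over the square root of its F statistic. The 95% intervals were built from these with a t quantile. The fit was tested on simulated data. Replicates differed by more than sampling noise (chi-square per degree of freedom 10.2 to 30.9). Alternatives were DESeq2 1.42.0, length offsets, library size scaling, other filters, protein-coding genes alone, a replicate block, the compared libraries alone, each library left out, the study's fold threshold and summed heavy chains.

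The 10 genes and the lists were chosen with earlier results of these data known. From each list up to 3 called genes with the lowest FDR for T-bet averaged over GATA3 states and the gene with the highest TPM were named, with Ifng, Irf1, Tbx21 and Gata3. Some genes that this rule or the marker lists hold are not reported here. Other list members named were chosen after their values were seen.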

Additional observations from a re-analysis of the deposited data

How the results depend on the processing

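The direction with T-bet averaged over GATA3 states was kept for all 10 genes under the 15 alternative fits run on each, and Tap1, Tap2 and Psmb10 were called in all 15. B2m was called in none of them, and Psmb8, H2-D1 and Nlrc5 in 5, 4 and 3. For T-bet + Plum against GFP + Plum, 3 genes were called, against 5 with no filter on low counts and 0 with the fold threshold, while 917, 1964 and 446 of all genes were called. For T-bet + GATA3 against GFP + GATA3, 3 were called, against 7 with no filter and 1 with the fold threshold, and of all genes 854, 1936 and 421. For T-bet + GATA3 against GFP + Plum, 3 were called, against 6 with DESeq2, 7 with no filter, 0 with the 4 libraries fitted alone and 1 with the fold threshold, and of all genes 721, 995, 1698, 294 and 386. Without the filter 30930 genes were tested. For T-bet averaged over GATA3 states the fold threshold left 1 of 6, and 666 of 2242 of all genes. Leaving out each library in turn gave 0 to 3, 1 to 5, 2 to 5 and 3 to 8 calls in these 4 comparisons, with the 3 for T-bet averaged over GATA3 states reached without replicate 1 of GFP + GATA3, replicate 2 of T-bet + Plum or replicate 2 of T-bet + GATA3, and the 5 for T-bet + GATA3 against GFP + GATA3 without either GFP + Plum library. Calls over all genes ran from 268 to 959, 250 to 1021, 378 to 572 and 1229 to 2377 in the same fits. The cause was not tested. Comparisons of GATA3 and the interaction called 0 of the 10 genes under all alternatives. Over all genes, GFP + GATA3 against GFP + Plum called 3, against 52 with DESeq2 and 293 with no filter. T-bet + GATA3 against T-bet + Plum called 5, against 36 and 228. GATA3 averaged over T-bet states called 9, against 80 and 373, and the interaction 0, against 12 and 145. Fits of the compared libraries alone do not apply to the averaged effects and the interaction, which use all 8.

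Same-numbered replicates do not pair the libraries by the labels, and the correlation of their deviations ran from -0.0455 to 0.302 over the 6 pairs of lines. With the replicate block, which added Psmb8 (FDR 0.0149), Nlrc5 (FDR 0.0188) and H2-D1 (FDR 0.0195) to the calls for T-bet averaged over GATA3 states, 6, 5, 6 and 9 genes were called in the 4 comparisons with T-bet, and over all genes calls rose as well, to 1440, 1379, 1110 and 3063.

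The order of levels depends on the scale, with 4 of 10 genes at their TPM rank in CPM and 5 when only protein-coding transcripts are summed. A p-value that missed the threshold does not show that a gene was unchanged, and the interval for B2m with T-bet averaged over GATA3 states still reached a log2 FC of 0.45. Psmb10 had the lowest counts on average, 118 to 798 per library.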
